A study of Mus musculus with 8 samples.

Results

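The genes of S phase and of G2M phase were followed through femoral stromal cells of unfractured and fractured mouse bone. The list held 44 genes chosen by name, 19 of S phase and 25 of the G2 and M phases, out of 28956 gene names in the tables. All 44 had UMIs (unique molecular identifiers, 1 for each captured RNA molecule), and 41 of them, 17 of S phase and 24 of G2M, were listed in every library. The remaining 3 members, Ung, Uhrf1 and Ube2c, are treated apart, since the tables of both Control 1 libraries listed no gene whose symbol starts with a capital U.

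Both groups came from 12-week-old female C57BL/6 mice, and the labels name no transgene or Cre. Control was unfractured bone. Fracture was bone taken 14 days after a left leg was broken by three-point bending at 10 weeks of age and held with an intramedullary nail. Cells from the femur were depleted of blood lineages, CD45 and CD117 on magnetic columns in both groups, and 3′ libraries were made on the Chromium system. Each group had 2 preparations with 2 libraries each, as read from the sample titles, which do not spell this out. How many animals went into a preparation is not given in the sources used here. The preparation was the unit of every comparison (n = 2 a group), so that an exact two-sided permutation test of a single value cannot go below p = 0.333. The p-values below are therefore those of edgeR's quasi-likelihood test fitted over all genes of a class, adjusted by the Benjamini-Hochberg method and called under 0.05. They measure the spread between these preparations, which may be technical.

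A dividing cell passes from growth (G1) into DNA synthesis (S), then through a second gap (G2) into mitosis (M). Genes for DNA replication are switched on by E2F factors at the entry into S phase. These include the MCM helicase (Mcm2 to Mcm7), the loading factor Cdc6, the sliding clamp Pcna and the enzymes that make deoxynucleotides (Rrm1, Rrm2, Tyms). Genes for chromosome condensation, the spindle and cell division are switched on later, many of them through a CHR element (cell cycle genes homology region) and CCAAT boxes. They include Cdk1 and its cyclins Ccnb1, Ccnb2 and Ccna2, DNA topoisomerase Top2a, the proliferation antigen Mki67, the Aurora kinases and the kinetochore and spindle proteins. Growth plate and callus chondrocytes pass from a dividing zone into a hypertrophic state, marked by Col10a1, in which division has ceased.

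The promoters of the members are shown because the start sites of the 2 phases carried different words. RefSeq promoters of GRCm38.p6, from 250 bases before to 50 bases after each start, were found for 38 members (16 of S phase and 22 of G2M). Mcm4, Gins2, Tipin, Ccna2, Tpx2 and Aurkb had no entry. An E2F word (TTTGGCGC, TTTCCCGC, TTTGCCGC or TTTCGCGC on either strand) stood in 8 of 18 S promoters (44.4%) and in 1 of 23 G2M promoters (4.35%), beside 2.26% of all 32851 promoters. A CHR word (TTTGAA or TTCGAA on either strand) stood in 3 of 18 S promoters (16.7%) and 17 of 23 G2M promoters (73.9%), beside 19.2% of all. A CCAAT box, on either strand, was as frequent in both phases, with 14 of 18 (77.8%) and 18 of 23 (78.3%), beside 37.4% of all. A CHR word together with a CCAAT box stood in 65.2% of G2M promoters, 16.7% of S promoters and 7.52% of all. These are matches of letters and not measured binding.

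The 7 genes named throughout are given as the 120 bases before the start site, in the direction of the gene, with E2F words, CHR words and CCAAT boxes in capitals. Mcm5, Pcna and Rrm2 stand for S phase, and Top2a, Mki67, Cdk1 and Ccnb1 for G2M. None of the 3 S phase stretches held an E2F word, so those of Dtl, Hells and Mcm6, the next S members by symbol that held such a word, are printed with them.
Mcm5 (chr8:75109389-75109508, plus strand): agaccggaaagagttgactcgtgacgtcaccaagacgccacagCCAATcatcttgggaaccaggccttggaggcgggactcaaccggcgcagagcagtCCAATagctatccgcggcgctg
Pcna (chr2:132253181-132253300, minus strand): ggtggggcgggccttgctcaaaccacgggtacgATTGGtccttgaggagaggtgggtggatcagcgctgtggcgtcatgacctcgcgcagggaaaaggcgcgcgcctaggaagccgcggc
Rrm2 (chr12:24708134-24708253, plus strand): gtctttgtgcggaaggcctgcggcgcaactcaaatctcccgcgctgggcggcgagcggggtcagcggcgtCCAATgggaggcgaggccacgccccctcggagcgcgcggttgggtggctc
Dtl (chr1:191575545-191575664, minus strand): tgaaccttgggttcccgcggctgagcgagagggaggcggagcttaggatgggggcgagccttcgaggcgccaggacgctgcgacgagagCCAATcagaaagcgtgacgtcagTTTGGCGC
Hells (chr19:38930870-38930989, plus strand): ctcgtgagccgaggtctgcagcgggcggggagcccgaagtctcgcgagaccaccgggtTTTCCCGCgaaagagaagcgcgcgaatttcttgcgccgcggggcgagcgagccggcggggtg
Mcm6 (chr1:128359706-128359825, minus strand): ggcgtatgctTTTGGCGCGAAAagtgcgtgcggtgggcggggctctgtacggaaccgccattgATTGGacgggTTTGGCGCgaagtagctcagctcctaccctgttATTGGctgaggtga
Top2a (chr11:99024190-99024309, minus strand): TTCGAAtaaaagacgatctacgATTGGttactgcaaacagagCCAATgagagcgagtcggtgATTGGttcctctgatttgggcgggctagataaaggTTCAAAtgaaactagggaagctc
Mki67 (chr7:135716380-135716499, minus strand): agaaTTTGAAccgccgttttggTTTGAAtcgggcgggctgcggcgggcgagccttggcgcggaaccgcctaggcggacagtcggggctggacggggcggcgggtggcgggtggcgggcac
Cdk1 (chr10:69352913-69353032, minus strand): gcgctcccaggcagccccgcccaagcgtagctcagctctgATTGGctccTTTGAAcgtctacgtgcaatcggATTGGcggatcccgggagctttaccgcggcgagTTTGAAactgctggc
Ccnb1 (chr13:100786487-100786606, minus strand): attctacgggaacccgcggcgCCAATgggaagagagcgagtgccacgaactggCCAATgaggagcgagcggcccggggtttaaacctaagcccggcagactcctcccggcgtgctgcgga
In these stretches the CHR words of Cdk1 began at -71 and -15 from the start and those of Mki67 at -116 and -98, while Ccnb1 held 2 CCAAT boxes and no CHR word. Dtl, which marks chromatin proteins for degradation in S phase, held its E2F word at -8, and Mcm6 held 3, of which 2 overlap. The members lay on 16 chromosomes, so that the lists were not clusters of neighbours.

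The 8 libraries held 56543151 to 89126291 UMIs, and 45328 of 48903 barcodes passed the filters. The median UMIs of passing cells were 7170 to 8685 in the Control libraries and 10640 to 12708 in the Fracture libraries, and barcodes below 1929 UMIs were listed for Control alone. Libraries of a preparation correlated at r = 0.998 to 0.999 over genes (genes are not independent replicates). Libraries shared 11 to 46 cell barcodes by pairs. Barcodes with over 6000 genes were removed, 290 and 333 of Control 1 and 2 but 25 and 48 of Fracture 1 and 2, and those of Control 2 had S and G2M sums of 3680 and 6606 CPM (UMIs of the genes relative to all UMIs of the cells, scaled as counts per 10 to the sixth). Stromal results that moved with them are given both ways. Blood-like cells were not fitted with them, though 216 of those of Control 2 were placed with erythroid-like cells by their markers.

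Cells were clustered without cell cycle genes and named from fixed markers. The chondrocyte-like class held 2105, 686, 6822 and 7145 cells in Control 1, Control 2, Fracture 1 and Fracture 2, the order used for all values below. It joined a cluster led by Col10a1 (1220, 414, 5822 and 6122 cells) and a cluster led by Serpina1a (885, 272, 1000 and 1023 cells). The other stromal classes were osteoblast-like (1706, 1011, 1704 and 1815 cells), BMSC-like (bone marrow stromal, 2615, 1731, 987 and 1070), endothelial-like (1651, 1253, 1214 and 1418), fibroblast-like (359, 126, 680 and 795) and smooth muscle-like (724, 210, 164 and 165). Blood-like cells remained despite the depletion, erythroid-like (623, 1760, 183 and 268) and neutrophil or basophil-like (2034, 846, 86 and 82). Megakaryocyte-like cells and a cluster of mixed blood markers had under 20 cells in a Fracture preparation and were not tested. Every marker of a named stromal class was detected in it, but the summed level of the 6 BMSC markers was 25269 and 26607 CPM in the Control cells of the BMSC-like class and 2170 and 2593 in its Fracture cells. The BMSC-like name therefore rests mainly on Control cells.

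The S sum and the G2M sum are the UMIs of the 17 and 24 members over all UMIs of the class, in CPM, scaled by edgeR's TMM factors. Without these factors the log2 differences would shift by -0.22 (erythroid-like) to 0.11 (osteoblast-like), which turns the sign of the S sum in the fibroblast-like and erythroid-like classes and in the Serpina1a-led cluster of chondrocyte-like cells. Among the tested classes erythroid-like cells had the highest levels of both, with S sums of 3453, 5577, 5012 and 4996 and G2M sums of 5426, 8050, 9842 and 9677. Neutrophil or basophil-like cells followed, with S sums of 1465, 1396, 1569 and 1337 and G2M sums of 3740, 4019, 4075 and 3637. An untested finer cluster of mixed blood markers (334, 93, 7 and 10 cells) lay above the latter, with G2M sums of 5526, 6184, 5862 and 9502 without TMM factors. Among stromal cells of unfractured bone the chondrocyte-like class had the highest G2M sum, 853 and 737, and the osteoblast-like class had 115 and 125, the lowest in Control 1 but not in Control 2, where the smooth muscle-like class had 112. In fractured bone this order was different, with the smooth muscle-like class at 2195 and 1754, above the BMSC-like class at 1363 and 1430 and the endothelial-like class at 1190 and 1250, with the chondrocyte-like class at 611 and 587. The osteoblast-like class was lowest there, at 236 and 239.

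**Figure D1:**
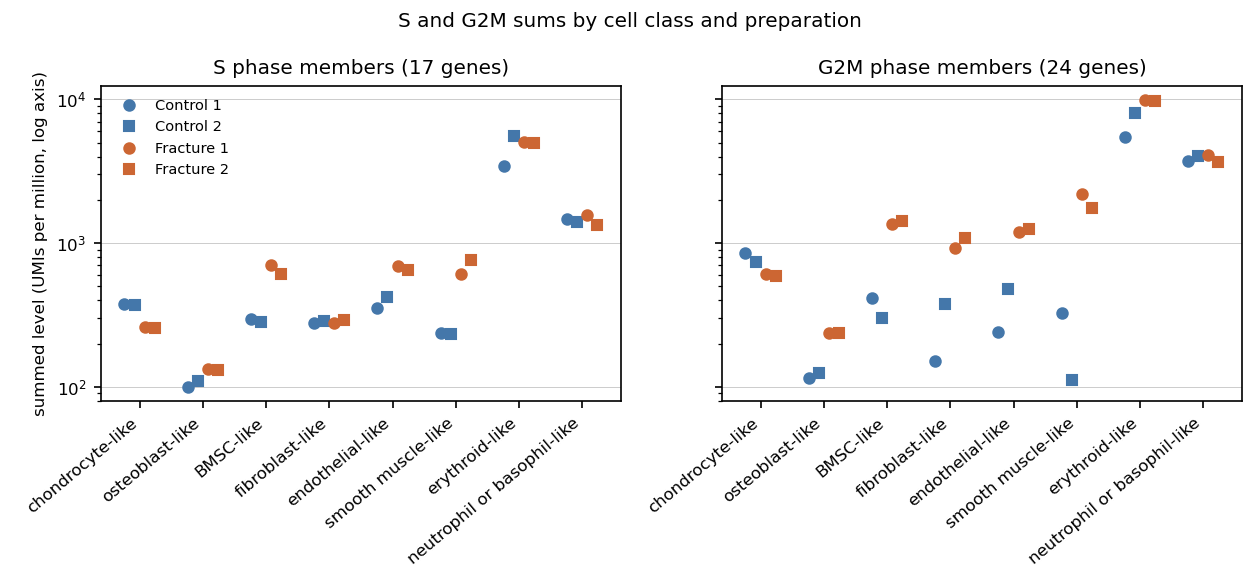
Summed level of the 17 S phase members (left) and the 24 G2M members (right) in CPM on a log axis, for each cell class and each of the 4 preparations (blue, Control; orange, Fracture; circles, preparation 1; squares, preparation 2). Fracture points lie above Control points for both sums in osteoblast-like, BMSC-like, endothelial-like and smooth muscle-like cells and below them in chondrocyte-like cells, while in fibroblast-like cells the S points overlap and the G2M points do not.

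In the chondrocyte-like class, taken whole, both phases were lower after fracture. The S sum was 377 and 370 in Control and 262 and 258 in Fracture (373 ± 5.1 against 260 ± 2.68, mean ± SD, n = 2), a log2 ratio of -0.52. The G2M sum was 853 and 737 against 611 and 587 (795 ± 81.6 and 599 ± 17.3), a log2 ratio of -0.41. Neither sum overlapped between the groups. The 2 libraries of Control 1 gave G2M values of 724 and 978 and those of Control 2 gave 821 and 649, beside 577 to 631 in Fracture libraries. The libraries of Control 1 thus lay further apart than the group means of the G2M sum. Of the 41 members, 31 were lower (15 S and 16 G2M) and 0 were higher, where 21.3% of all genes tested in this class were lower and 23.2% were higher. The median log2 fold change was -0.67 over the S members and -0.41 over the G2M members, beside -0.01 over all genes tested. With Fracture 1 or Fracture 2 left out, the log2 ratio of the S sums was -0.53 or -0.51. Fewer members were then called, for which no share over all genes is given. Osteoblast markers in the class summed to 5974 and 7605 CPM in Control and 13423 and 14453 in Fracture. Basophil markers summed to 433 and 219 against 3.57 and 6.72, and erythroid markers to 64.5 and 182 against 376 and 420. The part of these shifts in the result was not tested.

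The S members that fell included loaders and subunits of the replicative helicase. Cdc6, which loads the MCM helicase, was at 3.49, 3.42, 1.58 and 2.01 CPM (log2 fold change -0.94 ± 0.19 SE, adjusted p = 0.00873). Mcm5, a subunit of that helicase, was at 16.2, 16.9, 8.29 and 8.89 (-0.94 ± 0.08, adjusted p = 0.000326). Control cells held about the same amount in both preparations, well above the Fracture cells. Mcm3, another subunit, was at 20.5, 23.2, 12.2 and 12.0 (-0.84 ± 0.08, adjusted p = 0.000541). Pcna was at 34.7, 32.3, 18.97 and 19.9 (-0.79 ± 0.07, adjusted p = 0.000347), and Rrm2, the small subunit of ribonucleotide reductase, at 37.0, 34.4, 23.4 and 21.6 (-0.67 ± 0.07, adjusted p = 0.00081). Of the 6 MCM genes, 5 fell and Mcm6 did not pass (log2 fold change -0.17, adjusted p = 0.0722).

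Among the G2M members of the chondrocyte-like class, Top2a was at 112, 107, 69.7 and 66.3 CPM (log2 fold change -0.69 ± 0.06, adjusted p = 0.000342). Mki67 was at 70.5, 83.4, 48.9 and 46.1 (-0.69 ± 0.09, adjusted p = 0.00144). Both were lower in each Fracture preparation than in either Control preparation. The kinase that drives mitosis did not follow, since Cdk1 was at 61.3, 48.3, 52.7 and 52.8 (-0.07 ± 0.11, adjusted p = 0.622). Its partner Ccnb1 was at 19.6, 12.8, 14.1 and 14.1 (-0.25 ± 0.17, adjusted p = 0.264). The groups overlapped for both. Ccnb2, Cenpa, Cenpe, Aurka, Tacc3 and Cdc20 did not pass either, with log2 fold changes of -0.35 to -0.08.

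The make-up of the class differed between the groups. The Serpina1a-led cluster, whose sums were the higher ones, held 885 of 2105 and 272 of 686 Control cells and 1000 of 6822 and 1023 of 7145 Fracture cells, and the part of this in the fall of the whole class was not tested. The split itself depended on integration. Without it, a cluster led by Frzb, Aldh1a3 and Col10a1 held 116, 51, 5753 and 6032 cells and a Serpina1a-led cluster 1864, 592, 1068 and 1105, so that most Control cells then lay in the Serpina1a-led cluster. Phase values within the clusters were computed with integration alone. Within that cluster the S sum was 554, 548, 593 and 530, which overlapped (log2 ratio 0.03), and the G2M sum was higher after fracture, 1352, 1189, 1813 and 1670 (log2 ratio 0.46). There 16 members were higher (15 G2M and 1 S) against 8.94% of genes tested, and 2 were lower (Slbp and Pcna) against 6.6%. Cenpe, a kinetochore motor, was at 35.3, 31.5, 54.1 and 54.9 CPM (log2 fold change 0.69 ± 0.09, adjusted p = 0.00324). Tpx2, which builds spindles, was at 50.2, 45.9, 74.3 and 77.2 (0.65 ± 0.09, adjusted p = 0.00382), and Cdk1 at 104, 79.8, 152 and 133 (0.62 ± 0.13, adjusted p = 0.0209). All 3 were higher in each Fracture preparation. Slbp, which binds the histone mRNAs made in S phase, was at 19.05, 18.8, 10.7 and 10.4 (-0.85 ± 0.13, adjusted p = 0.00541) and Pcna at 46.5, 49.9, 37.5 and 38.4 (-0.34 ± 0.09, adjusted p = 0.0391). Top2a, at 190, 180, 243 and 215, did not pass (adjusted p = 0.0665).

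Within the Col10a1-led cluster, whose leading genes include the hypertrophic marker, both sums were lower after fracture by less than in the class. The S sum was 268, 260, 210 and 218 (log2 ratio -0.30) and the G2M sum 538, 453, 428 and 433 (-0.20). The 2 libraries of Control 1 gave G2M values of 425 and 654 there, scaled by TMM factors as the sums were. This group difference thus lay within the spread of libraries. There 15 members were lower (8 S and 7 G2M) against 18.8% of genes tested, and 1 was higher against 20.4%. Mcm5 was at 10.9, 11.8, 5.38 and 6.54 CPM (log2 fold change -0.91 ± 0.13, adjusted p = 0.00191), and Mcm4 at 11.6, 12.5, 7.06 and 7.30 (-0.73 ± 0.10, adjusted p = 0.00124). Cks2, a small partner of Cdk1, was at 38.5, 24.2, 22.0 and 20.5 (-0.62 ± 0.17, adjusted p = 0.0256). The single rise was Cdk1 itself, at 33.8, 28.4, 37.4 and 41.2 (0.32 ± 0.10, adjusted p = 0.0381). Mcm5 was thus lower in the Col10a1-led cluster and at 24.6, 25.2, 27.5 and 25.5 in the Serpina1a-led cells, where it did not pass (adjusted p = 0.566). At a finer resolution the chondrocyte-like cells outside a Serpina1a-led cluster were mixed. A cluster led by Col10a1 and Loxl4 held 249, 113, 1924 and 1966 cells, and one led by Chi3l1 and Ucma, with higher G2M sums, 480, 149, 1148 and 1303. The latter was the larger in Control and the smaller in Fracture, and the part of this in the falls was not tested.

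The smooth muscle-like cells, pericytes and muscle cells of vessel walls by their markers Rgs5, Myh11 and Acta2, had the largest ratios of both sums among the 6 stromal classes. The S sum was 237, 234, 609 and 762 (235 ± 1.72 against 685 ± 108, log2 ratio 1.54). The G2M sum was 325, 112, 2195 and 1754 (218 ± 150 against 1974 ± 312), 9.05 times as high after fracture (log2 ratio 3.18, or 4.14 without Control 1 and 2.60 without Control 2). The Control preparations differed from each other by more than the S sums did, but both lay far below the Fracture values. All 24 G2M members and 14 of 17 S members were higher, where 17.9% of genes tested were higher, and 0 members were lower, where 16.1% were. Cdk1 was at 20.4, 9.72, 179 and 169 CPM (log2 fold change 3.36 ± 0.24, adjusted p = 7.33e-05). Birc5, the survivin subunit of the chromosomal passenger complex, was at 13.1, 6.48, 143 and 102 (3.47 ± 0.28, adjusted p = 0.000108). Ect2, which sets off cytokinesis, was at 2.56, 0, 31.0 and 18.6 (3.70 ± 0.59, adjusted p = 0.00202), from 9 and 0 UMIs in Control. These Control levels rest on 0 to 72 UMIs and the Fracture levels on 28 to 255.

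Most other named genes of the smooth muscle-like class rose as well. Top2a was at 30.4, 12.2, 199.96 and 174 CPM (log2 fold change 2.96 ± 0.28), Mki67 at 24.99, 17.01, 190 and 127 (2.83 ± 0.25) and Ccnb1 at 9.94, 4.05, 66.9 and 51.8 (2.86 ± 0.32). Rrm2 was at 5.96, 4.05, 47.9 and 63.0 (3.35 ± 0.29) and Mcm5 at 7.38, 11.3, 27.5 and 33.8 (1.82 ± 0.31). The adjusted p of these 5 was 0.000130 to 0.00268, and no group overlapped. Pcna, at 28.1, 25.9, 35.2 and 45.8, did not pass (0.57 ± 0.21, adjusted p = 0.0723), and neither did Mcm4 and Slbp. The class held 164 and 165 Fracture cells. Its 6 erythroid markers summed to 40 and 87.5 CPM in Control and 1664 and 1801 in Fracture, beside 46788 and 59144 in the Fracture erythroid-like cells, and its 7 chondrocyte markers to 696 and 250 against 11006 and 7295. Its own smooth muscle markers summed to 40322 and 38508 against 20214 and 21740, and its fibroblast markers to 759 and 751 against 1872 and 2486. The part of these shifts in the result was not tested.

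BMSC-like cells had higher sums of both phases after fracture. The S sum was 295, 284, 705 and 606 (289 ± 7.8 against 656 ± 70.0, log2 ratio 1.18) and the G2M sum 413, 302, 1363 and 1430 (357 ± 78.6 against 1397 ± 47, log2 ratio 1.97). Of the 41 members, 39 were higher (15 S and 24 G2M) against 27.5% of genes tested, and 1 was lower against 28.3%. Cdk1 was at 24.8, 13.7, 120.5 and 116 CPM (log2 fold change 2.61 ± 0.24, adjusted p = 0.000213). Cdc20, which starts anaphase, was at 13.5, 9.78, 61.8 and 79.2 (2.59 ± 0.18, adjusted p = 8.39e-05), and Cenpa, the histone of the centromere, at 22.1, 14.0, 95.7 and 98.2 (2.42 ± 0.19, adjusted p = 0.000125). Each was several times as high in either Fracture preparation as in Control. Slbp was the exception, at 18.8, 18.3, 15.7 and 12.6 (-0.39 ± 0.14, adjusted p = 0.0494), a call that 9 alternatives did not keep, and Mcm4 did not pass (0.15, adjusted p = 0.247).

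In the same class Mcm5 was at 10.9, 9.32, 36.7 and 29.9 CPM (log2 fold change 1.71 ± 0.15) and Rrm2 at 16.6, 14.9, 60.6 and 48.7 (1.79 ± 0.14). Top2a was at 58.0, 43.8, 156 and 163 (1.65 ± 0.14), Mki67 at 43.9, 40.6, 97.0 and 103 (1.24 ± 0.09) and Ccnb1 at 8.02, 6.32, 33.5 and 37.1 (2.29 ± 0.15). The adjusted p of these 5 was 6.07e-05 to 0.000186. Pcna rose least of the named genes, at 27.4, 31.2, 42.6 and 37.1 (0.44 ± 0.12, adjusted p = 0.0154). The Fracture cells of this class carried fewer BMSC markers (above) and more of other lists, with chondrocyte markers at 1101 and 542 CPM in Control and 4726 and 5095 in Fracture, and fibroblast markers at 109 and 38.2 against 820 and 930. Smooth muscle markers were at 260 and 194 against 1462 and 1199, and erythroid markers, which overlapped, at 87.2 and 586 against 429 and 1027. At a finer resolution, without TMM factors, a BMSC-like cluster led by Adipoq held 1064, 731, 71 and 99 cells. Its S sums were 283, 357, 358 and 264 and its G2M sums 161, 295, 737 and 314, so that the S sums overlapped there. A BMSC-like cluster led by Saa3 (634, 499, 411 and 431 cells) had S sums of 281, 240, 653 and 585 and G2M sums of 347, 101, 1156 and 1240. Another cluster without a name, led by Mmp9 (866, 481, 457 and 482 cells), had S sums of 342, 267, 728 and 574 and G2M sums of 597, 528, 1692 and 1595. The rise of both sums was thus present in the Saa3-led and Mmp9-led clusters. In the Adipoq-led cluster the G2M sums alone did not overlap, with 314 in Fracture 2 close to 295 in Control 2. The part of the class's changed make-up in the rise was not tested.

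Endothelial-like cells, the lining of vessels, had an S sum of 354, 423, 698 and 653 (389 ± 48.9 against 675 ± 31.8, log2 ratio 0.80) and a G2M sum of 239, 482, 1190 and 1250 (361 ± 172 against 1220 ± 43, log2 ratio 1.76, or 1.34 without Control 1 and 2.35 without Control 2). All 24 G2M members and 13 of 17 S members were higher against 21.3% of genes tested, and 0 were lower against 19.2%. Birc5 was at 13.6, 24.4, 98.0 and 93.6 CPM (log2 fold change 2.35 ± 0.24, adjusted p = 0.00187). Ccnb1 was at 4.20, 5.77, 22.7 and 28.0 (2.35 ± 0.20, adjusted p = 0.00138), and Ccnb2, the other B-type cyclin, at 8.51, 15.5, 59.3 and 62.4 (2.35 ± 0.24, adjusted p = 0.00192). Control 2 was above Control 1 for each, and both were below Fracture. Cdk1 was at 20.1, 38.1, 113 and 105 (1.92 ± 0.26), Top2a at 30.9, 64.6, 132 and 139 (1.51 ± 0.30) and Mki67 at 25.3, 58.9, 101 and 106 (1.31 ± 0.34). Rrm2 was at 8.72, 15.9, 36.6 and 40.1 (1.65 ± 0.25) and Mcm5 at 19.8, 22.0, 39.7 and 33.7 (0.81 ± 0.13). The adjusted p of these 5 was 0.00393 to 0.0267. Pcna, at 40.9, 45.1, 50.1 and 47.2, did not pass (0.18 ± 0.09, adjusted p = 0.178), like Mcm4, Cdc6 and Slbp. Without Fracture 1 or without Fracture 2 fewer members were called higher, and no share over all genes is given for these fits. Erythroid markers summed to 269 and 104 in Control and 1145 and 1332 in Fracture, and chondrocyte markers to 3017 and 1107 against 16367 and 16997, whose part was not tested.

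In fibroblast-like cells the G2M sum was higher after fracture, while the S sum was not when libraries were integrated and was higher (log2 ratio 0.71) when they were not. Without integration the class was a different set of cells (395, 101, 1093 and 1231), with Saa3 among its leading genes. The BMSC-like class then held 2690, 1758, 464 and 518 cells, fewer Fracture cells than with integration. With integration the fibroblast-like S sum was 276, 285, 277 and 290 (281 ± 6.57 against 283 ± 9.23), with groups that overlapped. The G2M sum was 150, 379, 929 and 1076 (264 ± 161 against 1002 ± 104, log2 ratio 1.92), with a log2 ratio of 1.405 without Control 1, 2.74 without Control 2 and 0.98 with barcodes of over 6000 genes kept. Of 40 members tested (Dtl fell to the filter on low counts), 22 of 24 G2M and 2 of 16 S members were higher, against 12% of genes tested, and 2 S members were lower, against 11.2%. Kif23, a motor of cytokinesis, was at 0.728, 3.16, 16.3 and 17.4 CPM (log2 fold change 3.46 ± 0.45, adjusted p = 0.00292). Cenpa was at 6.92, 17.4, 89.1 and 95.5 (3.13 ± 0.28, adjusted p = 0.000735) and Cdc20 at 3.64, 17.4, 48.8 and 56.7 (2.68 ± 0.42, adjusted p = 0.00592). Cdk1 was at 10.2, 25.3, 72.7 and 74.8 (2.25 ± 0.29), Ccnb1 at 3.28, 11.9, 30.1 and 34.2 (2.39 ± 0.39), Mki67 at 14.9, 28.4, 55.6 and 65.9 (1.62 ± 0.25) and Top2a at 25.8, 47.4, 64.4 and 91.0 (1.19 ± 0.28), with adjusted p of 0.00261 to 0.0247. Each was lowest in Control 1, and the groups did not overlap.

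The called S members of fibroblast-like cells, 2 higher and 2 lower of 16, were near the shares over all genes (12% and 11.2%). Rrm2 was at 7.28, 9.48, 20.6 and 28.5 CPM (log2 fold change 1.62 ± 0.29, adjusted p = 0.00879), and the other S member to rise was Cdc45, which joins the helicase (1.18). Mcm6 fell, at 43.0, 37.1, 22.2 and 19.6 (-0.97 ± 0.15, adjusted p = 0.00558). Pcna, at 30.9, 30.8, 21.6 and 22.6 (-0.48 ± 0.14), lay just under the threshold, and most other settings left 1 of these 2 falls. Mcm5, at 8.01, 15.01, 7.48 and 9.50, did not pass (-0.30 ± 0.35, adjusted p = 0.568). The class held 126 cells in Control 2, whose libraries gave G2M values of 650 and 93.9, scaled by TMM factors. With the barcodes of over 6000 genes kept, 0, 3, 1 and 3 in these cells, the members called higher fell to 3. They were also fewer without Fracture 2. No share over all genes is given for either setting. Fibroblast markers summed to 20093 and 21360 CPM in the Control cells of the class and 8278 and 8897 in its Fracture cells. Erythroid markers summed to 25.8 and 83.0 against 463 and 629, and the part of either shift was not tested.

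Osteoblast-like cells, the bone-forming cells, had the lowest S sum of the stromal classes in every preparation, and both sums were higher after fracture. The S sum was 100, 110, 134 and 131 (105 ± 6.94 against 132 ± 1.88, log2 ratio 0.33) and the G2M sum 115, 125, 236 and 239 (120 ± 6.86 against 237 ± 1.93, log2 ratio 0.98). The 2 libraries gave G2M values of 189 and 285 in Fracture 1 and 272 and 202 in Fracture 2. In Control 1 they gave 134 and 95.9, and in Control 2 147 and 101. The close agreement of the preparations thus understates the spread of libraries. Of the 41 members, 27 were higher (6 S and 21 G2M) against 15.4% of genes tested, and 0 were lower against 13.1%. Cenpa was at 7.505, 5.46, 21.5 and 18.3 CPM (log2 fold change 1.59 ± 0.16, adjusted p = 0.000106). Cdk1 was at 7.505, 5.98, 19.1 and 19.6 (1.502 ± 0.13, adjusted p = 4.8e-05) and Ect2 at 1.585, 0.832, 3.44 and 3.58 (1.48 ± 0.30, adjusted p = 0.00646). The groups did not overlap for any of these. Ccnb1 was at 2.94, 2.71, 7.12 and 7.70 (1.38 ± 0.16, adjusted p = 0.000287), Rrm2 at 5.18, 6.03, 14.99 and 13.2 (1.34 ± 0.13, adjusted p = 0.000127) and Top2a at 14.8, 16.2, 21.5 and 25.3 (0.59 ± 0.11, adjusted p = 0.00396). Mki67, at 10.1, 17.9, 16.6 and 17.3, did not pass (0.31 ± 0.21, adjusted p = 0.31). Nor did Mcm5, at 3.01, 3.59, 4.93 and 4.34 (0.50 ± 0.19, adjusted p = 0.0798), or Pcna, at 12.6, 15.4, 12.8 and 13.3 (-0.10 ± 0.12, adjusted p = 0.594). None of the 6 MCM genes passed. DESeq2 called 0 members lower in osteoblast-like, endothelial-like and smooth muscle-like cells and 0 higher in the chondrocyte-like class, with no share over all genes given. With 1 Fracture preparation left out, fewer members were called higher, and no share over all genes is given for these fits. The 6 osteoblast markers of the class summed to 76921 and 94619 CPM in Control and 34098 and 44169 in Fracture. Its erythroid markers summed to 50.5 and 73.7 against 366 and 306, and the part of either shift in the result was not tested.

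**Figure D2:**
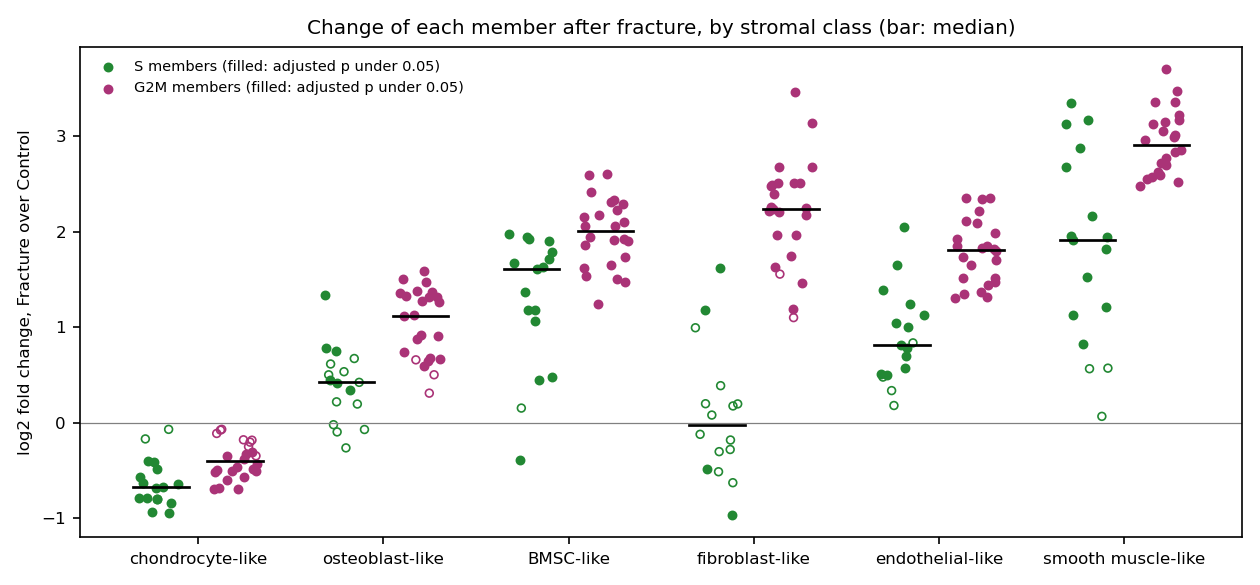
Log2 fold change of each member (Fracture over Control, 2 preparations each, edgeR) in the 6 stromal classes, S members in green and G2M members in purple, filled where the adjusted p was under 0.05, with a bar at the median. The G2M median lies above the S median in every class, in the chondrocyte-like class with both below 0 (-0.67 and -0.41), and the fibroblast-like S points spread around 0.

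**Figure D3:**
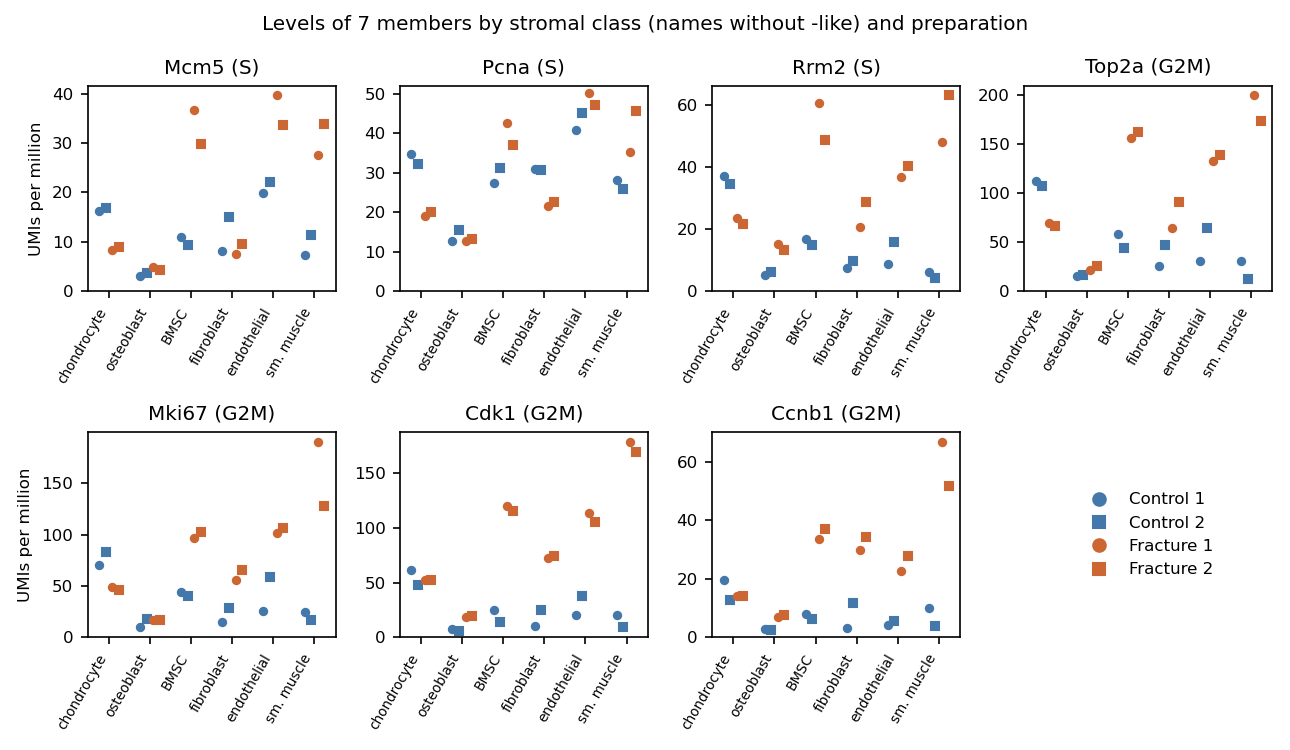
Levels of Mcm5, Pcna, Rrm2, Top2a, Mki67, Cdk1 and Ccnb1 in CPM (linear axes from 0, TMM-scaled within each class) in the 6 stromal classes and 4 preparations. Cdk1 reaches 179 and 169 in smooth muscle-like Fracture cells and 52.7 and 52.8 in chondrocyte-like ones, and Pcna stays between 12.6 and 50.1 in all.

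The fracture effect itself was compared between classes, with each class set against the chondrocyte-like class in a fit with the preparation as a block. The difference was larger (more positive) for 39 of 41 members in the osteoblast-like, 40 in the BMSC-like, 41 in the endothelial-like and 40 in the smooth muscle-like class. Over all genes it was larger for 13.6%, 21.9%, 16.9% and 12.2%. In the fibroblast-like class it was larger for 29 members (23 of 24 G2M and 6 of 17 S) and smaller for 1, Mcm6, where 7.64% of all genes were larger and 1219 of 14541 smaller. The median difference over the members was 1.27, 2.33, 1.98, 3.25 and 2.39 in log2 units for the osteoblast-like, BMSC-like, endothelial-like, smooth muscle-like and fibroblast-like classes, and -0.06 to 0.03 over all genes. Slbp did not pass in the osteoblast-like, BMSC-like, fibroblast-like and smooth muscle-like comparisons. All 5 comparisons share the chondrocyte-like cells, and the class mixes 2 clusters whose own effects differed in sign for G2M.

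Whether the phases moved together depended on the class. Both sums rose without overlap in osteoblast-like, BMSC-like, endothelial-like and smooth muscle-like cells, and in each the G2M sum rose by more. The number of G2M UMIs per S UMI, which does not depend on scaling, was 1.15, 1.13, 1.76 and 1.82 in osteoblast-like cells. It was 1.401, 1.06, 1.93 and 2.36 in BMSC-like cells and 0.676, 1.14, 1.71 and 1.92 in endothelial-like cells. In these 3 classes it was higher in both Fracture preparations than in either Control one. In smooth muscle-like cells it was 1.37, 0.478, 3.60 and 2.30, and in fibroblast-like cells, where the S sums overlapped, 0.545, 1.33, 3.36 and 3.71. Chondrocyte-like cells had 2.26, 1.99, 2.33 and 2.27, a change of 1.08 times with both sums falling. Within them the Serpina1a-led cluster went from 2.44 and 2.17 to 3.06 and 3.15, and the Col10a1-led cluster had 2.01, 1.74, 2.04 and 1.99, which overlapped. The ratio thus rose, with no overlap, in the 5 stromal classes other than the chondrocyte-like one. In the chondrocyte-like class 2.27 in Fracture 2 was close to 2.26 in Control 1. The 2 libraries of Control 1 had S sums of 380 and 375 but G2M sums of 724 and 978 there. A rise of the ratio in the chondrocyte-like class is therefore not shown beyond the spread of libraries.

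**Figure D4:**
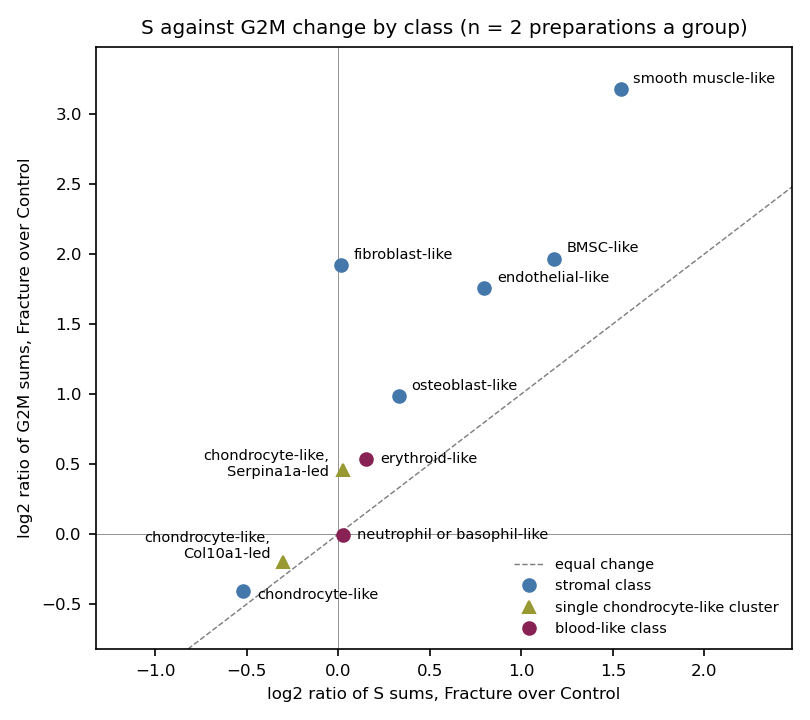
Log2 ratio of the S sums against that of the G2M sums (Fracture over Control, means of 2 preparations) for the 6 stromal classes (blue), the 2 chondrocyte-like clusters (triangles) and the blood-like classes (dark red), with a dashed line of equal change. The fibroblast-like class lies at 0.01 and 1.92, the smooth muscle-like class at 1.54 and 3.18 and the chondrocyte-like class at -0.52 and -0.41.

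The same was counted by cells. Each cell was thinned to 1000 UMIs, and a cell with at least 2 UMIs of a list was counted as positive for it, leaving out 0 to 80 shallower Control cells and 0 Fracture cells of a class and preparation. The BMSC-like share that was G2M-positive was 3.46% and 2.14% in Control and 16.6% and 15.3% in Fracture, and the S-positive share 3.53%, 3.53%, 12.1% and 9.91%. In endothelial-like cells the G2M-positive share was 2.80%, 4.35%, 16.0% and 16.2% and the S-positive share 5.86%, 7.33%, 16.0% and 13.4%. In smooth muscle-like cells they were 2.12%, 1.43%, 20.7% and 18.2% for G2M and 1.83%, 4.29%, 10.98% and 15.8% for S. In all 3 classes either share was higher in both Fracture preparations.

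Chondrocyte-like cells were G2M-positive in 8.45%, 8.61%, 6.39% and 6.34% and S-positive in 6.59%, 8.18%, 3.899% and 3.64%. The fall of cells positive for S was the larger one. In the Serpina1a-led cluster the G2M-positive share was 12.9%, 13.6%, 17.8% and 16.1%. Fibroblast-like cells were G2M-positive in 1.70%, 3.20%, 10.4% and 9.31% and S-positive in 4.26%, 12.0%, 4.12% and 3.899%, the 12.0% being 15 of 125 cells. Osteoblast-like cells had G2M-positive shares of 1.59%, 1.78%, 3.23% and 2.92% and S-positive shares of 0.882%, 1.09%, 1.41% and 2.31%. This direction was not the same under every thinning and cut-off. Thinned to 2000 UMIs, the G2M-positive share was 1.91%, 2.76%, 4.58% and 4.57%, without overlap. The S-positive share then was 1.85%, 3.27%, 4.23% and 2.98%, which overlapped. Median UMIs before thinning were 18594, 21215, 11223 and 12179 in osteoblast-like cells, so that unthinned shares set deeper Control cells against shallower Fracture cells. Without thinning the osteoblast-like S-positive share was 39.9%, 46.5%, 25.7% and 25.7% and the G2M-positive share 16.5%, 17.4%, 13.3% and 12.9%, both lower in Fracture. Thinned, with at least 1 UMI, the G2M-positive share was 5.35%, 8.01%, 7.75% and 7.22%, which overlapped. A finer osteoblast-like cluster led by Ptprz1, Dkk1 and Phex had 0 G2M-positive cells of 76, 36, 39 and 42, which allows shares of up to 3.95%, 8.33%, 7.69% and 7.14% (counting error only). Positive for both lists were 0.982%, 1.04%, 7.70% and 4.95% of BMSC-like cells and 1.08%, 1.85%, 7.17% and 6.91% of endothelial-like cells, but 3.72%, 5.11%, 1.89% and 1.81% of chondrocyte-like cells. Median UMIs of the class before thinning were 5293, 6783, 8156 and 8436 in BMSC-like cells and 14167, 18147, 12306 and 13182 in chondrocyte-like cells, so that unthinned depth was higher after fracture in the former and lower in the latter.

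**Figure D5:**
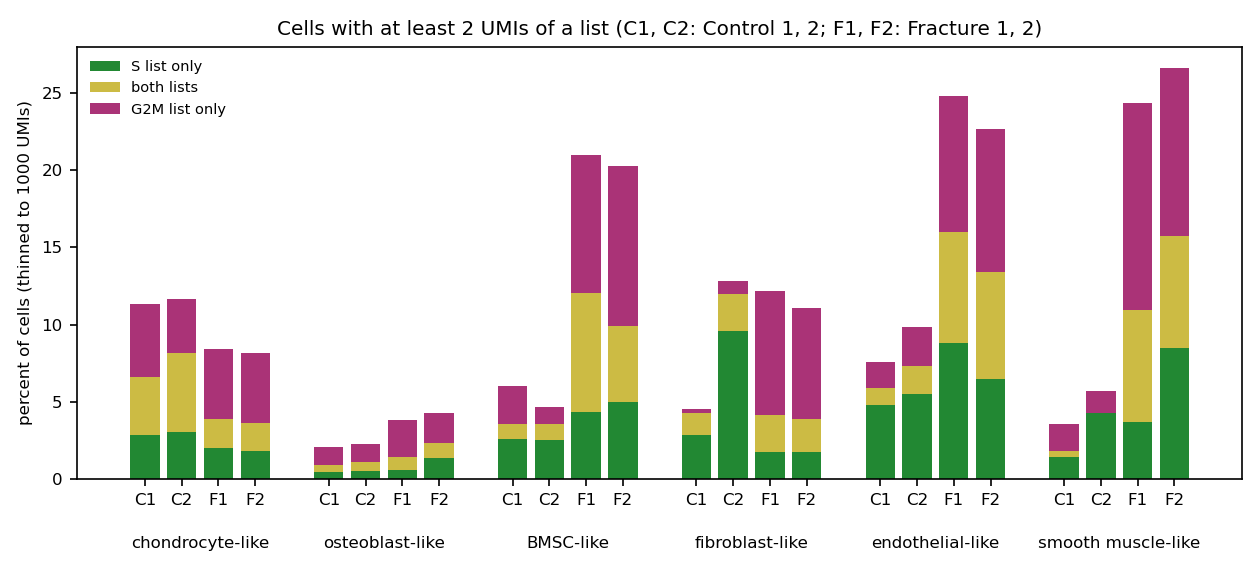
Percent of cells, thinned to 1000 UMIs, with at least 2 UMIs of the S list only (green), of both lists (yellow) or of the G2M list only (purple) in Control 1, Control 2, Fracture 1 and Fracture 2 of each stromal class. The stacked share is higher in Fracture in the osteoblast-like, BMSC-like, endothelial-like and smooth muscle-like classes and lower in the chondrocyte-like class; in fibroblast-like cells the G2M-only share goes from 0.284% and 0.800% to 8.09% and 7.17%.

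After fracture the chondrocyte-like class, the largest, held the most positive stromal cells. In Control it did so in Control 1 alone, while in Control 2 the endothelial-like class held the most. Of stromal cells positive for either list, 40.5% and 24.0% were chondrocyte-like in Control and 45.2% and 43.8% in Fracture, while the class was 23.3%, 13.7%, 59.0% and 57.6% of stromal cells. BMSC-like cells were 26.2%, 24.0%, 16.3% and 16.3% of the positive cells and 28.4%, 34.5%, 8.53% and 8.62% of stromal cells. Endothelial-like cells were 20.3%, 36.6%, 23.7% and 24.2% of the positive and 17.5%, 24.8%, 10.5% and 11.4% of all. Chondrocyte-like cells thus went from a larger share among positive cells than among all to a smaller one, and BMSC-like and endothelial-like cells the other way or further the same way.

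In blood-like cells no member passed the test by edgeR. In erythroid-like cells 0 members were called, beside 0.672% of all genes called higher and 0.0621% called lower. Counts at an unadjusted p are left out for the blood-like classes, since no share over all genes stands beside them. Cdk1 was at 251, 343, 534 and 527 CPM in erythroid-like cells (log2 fold change 0.83 ± 0.20, adjusted p = 0.106), and both sums of that class were lowest in Control 1. The erythroid-like G2M sums did not overlap between the groups (log2 ratio 0.53), and neither did the G2M UMIs per S UMI, at 1.57, 1.44, 1.96 and 1.94. The erythroid markers of the class summed to 6331 and 15281 CPM in Control and 46788 and 59144 in Fracture, and the part of this was not tested. In neutrophil or basophil-like cells 0 members were called, beside 2.48% of all genes called higher and 2.87% called lower. Its basophil markers summed to 38869 and 45650 CPM in Control and 9006 and 9720 in Fracture, and its neutrophil markers to 3994 and 6413 against 26218 and 33100, so that the class was made up differently in the groups. Top2a was at 518, 587, 567 and 485 there (-0.07 ± 0.15, adjusted p = 0.817). These classes had 82 to 268 Fracture cells, and DESeq2 was not run on them.

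No single gene carried a sum. Top2a gave 9.0% to 12.7% of the G2M sum in every stromal class, and Tipin, a replication fork protein, gave 9.8% to 19.7% of the S sum, with the largest share in osteoblast-like cells and in the Col10a1-led cluster (20.05%). Tipin was called higher in osteoblast-like, BMSC-like, endothelial-like and smooth muscle-like cells by log2 fold changes of 0.34 to 1.13 and did not pass in the chondrocyte-like class (-0.07, adjusted p = 0.38). The 8 G2M members that did not pass in the chondrocyte-like class (Cdk1, Ccnb1, Ccnb2, Cenpa, Cenpe, Aurka, Tacc3 and Cdc20) were called higher in each of the other 5 stromal classes. Rrm2 and Cdc45 were the S members called higher in all 5.

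The members without rows in Control 1 have 1 Control preparation and no test. Ube2c, the ubiquitin enzyme that works with Cdc20, was at 20.9 CPM in Control 2 and 132 and 135 in Fracture in BMSC-like cells, without TMM factors. It was at 12.7 against 269 and 213 in smooth muscle-like cells and at 64.3 against 54.3 and 53.3 in chondrocyte-like cells. Uhrf1, which keeps DNA methylation after replication, was at 7.095 against 21.1 and 16.8 in BMSC-like and 8.52 against 4.18 and 4.04 in chondrocyte-like cells. Ung, which removes uracil from DNA, was at 11.5 against 7.12 and 6.95 in chondrocyte-like cells.

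Other genes of the same phases, listed by name but with earlier results of these data known, are given for comparison. Of 24 other G2M genes, 16 were lower and 0 higher in the chondrocyte-like class, and 16, 23, 21, 21 and 17 were higher and 0 lower in the osteoblast-like, BMSC-like, endothelial-like, smooth muscle-like and fibroblast-like classes. Of 22 other S phase genes, 17 were lower in the chondrocyte-like class, and 3, 16, 14 and 10 were higher in the osteoblast-like, BMSC-like, endothelial-like and smooth muscle-like classes. In fibroblast-like cells 0 of them were higher and 2 lower. Of these lists 22 to 24 and 18 to 20 genes passed the filter on low counts in a class. The 3 S phase genes in osteoblast-like cells and the 2 in fibroblast-like cells lay near the shares over all genes (15.4% higher and 11.2% lower), while 21.3% of all genes were lower in the chondrocyte-like class and 27.5%, 21.3% and 17.9% higher in the BMSC-like, endothelial-like and smooth muscle-like classes.

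The genes that decide on entry into S phase did not move as a block. Ccnd1, the cyclin D that answers to growth signals, was lower in the chondrocyte-like class, at 76.1, 65.2, 29.0 and 30.7 CPM (log2 fold change -1.25 ± 0.09), and in both of its clusters (-0.83 and -1.56). It was higher in smooth muscle-like cells, at 29.5, 29.97, 126 and 140 (2.16 ± 0.16), in BMSC-like cells, at 47.0, 29.6, 139 and 115 (1.73 ± 0.21), and in endothelial-like cells, at 123, 133, 207 and 212 (0.72 ± 0.08). In fibroblast-like cells Ccnd1 was at 20.8, 27.7, 29.5 and 25.05 and did not pass (adjusted p = 0.433). E2f1, an activating E2F, rose in osteoblast-like (1.48), BMSC-like (2.14), endothelial-like (1.45) and smooth muscle-like cells (2.65) and did not pass in the chondrocyte-like (-0.27) and fibroblast-like classes (0.53). Rb1, which restrains E2F, was lower in BMSC-like, endothelial-like, smooth muscle-like and osteoblast-like cells (-0.96 to -0.32) and higher in the chondrocyte-like class (0.50). Of the 16 genes of this list, 2 were higher and 4 lower in the chondrocyte-like class, and 4 and 2, 7 and 3, 8 and 4, 6 and 2, and 2 and 0 in the osteoblast-like, BMSC-like, endothelial-like, smooth muscle-like and fibroblast-like classes. Over all genes tested in these 6 classes, in the same order, 23.2%, 15.4%, 27.5%, 21.3%, 17.9% and 12% were higher. Lower were 21.3%, 13.1%, 28.3%, 19.2%, 16.1% and 11.2%. The falls in the chondrocyte-like, osteoblast-like, endothelial-like and smooth muscle-like classes and the rises in the fibroblast-like class lay near their own shares.

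Some inhibitors of cyclin-dependent kinases rose in every stromal class, also where the phase genes rose. Cdkn1a, which encodes p21, was at 140, 163, 602 and 572 CPM in the chondrocyte-like class (log2 fold change 1.95 ± 0.09) and rose in its Serpina1a-led (1.70) and Col10a1-led (1.64) clusters. In BMSC-like cells it was at 107, 98.1, 227 and 218 (1.12 ± 0.09). In osteoblast-like cells it was at 300, 293, 303 and 299 and did not pass (adjusted p = 0.87). Cdkn2a was at 4.66, 3.23, 95.8 and 86.4 in BMSC-like cells (4.51 ± 0.16), and its neighbour Cdkn2b at 3.60, 1.43, 55.3 and 49.0 (4.32 ± 0.29), the largest changes of the list. Cdkn1c, which encodes p57, was lower in BMSC-like cells (-1.23) and higher in the chondrocyte-like class (0.72), osteoblast-like (1.09), fibroblast-like (0.84) and smooth muscle-like cells (0.80). Of the 7 inhibitors, 4 were higher and 1 lower in the chondrocyte-like class, and 4 and 0, 5 and 2, 5 and 1, 4 and 0, and 4 and 1 in the osteoblast-like, BMSC-like, fibroblast-like, endothelial-like and smooth muscle-like classes. The shares over all genes were 23.2% higher and 21.3% lower in the chondrocyte-like class, and 15.4% and 13.1%, 27.5% and 28.3%, 12% and 11.2%, 21.3% and 19.2%, and 17.9% and 16.1% in the others in the same order.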

How the data were processed

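The files deposited by the authors gave UMI counts for each gene in each barcode of 8 single-cell libraries, with no normalisation. Per the labels' processing notes the tools were bcl2fastq 2.19.1.403, UMI-tools 1.0.0, STAR 2.7.3a and featureCounts 1.6.4 on mm10, whereas the published methods describe STARsolo and EmptyDrops. Which of these made the tables could not be told. Genes in at least 3 cells and cells with 500 to 6000 genes and at most 25% mitochondrial UMIs were kept (26357 of 28956 genes). After LogNormalize in Seurat 5.3.0 (R 4.3.3), the libraries were integrated by canonical correlation on 1871 of 2000 variable genes, leaving out cell cycle genes and symbols starting with U, over 30 dimensions, and clustered on 12 components at a resolution of 0.1 (finer 0.5).

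A cluster took the name of a type when at least 50% and at least 3 of its markers reached 20 CPM and 1 in 3 of the highest cluster, with ties settled by its 10 leading genes. This naming rule was set after the clusters were seen, and a difference from the study's own names may come from it. UMIs of the libraries of a preparation were summed by class and tested with edgeR 4.0.16 (glmQLFit, TMM, filterByExpr, classes of at least 20 cells in every preparation). DESeq2 1.42.0 was an alternative. Scripts were tested on simulated counts. Doublets scored by scrublet (scanpy 1.11.5, 722 cells, 1.59%) were kept outside an alternative.

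The tables of Control 1 listed no symbol starting with U, which held 1.26% to 1.41% of UMIs elsewhere, so all such genes were left out of features, fits and sums, a departure from the planned 44 members. The members, lists and tests were chosen with earlier results of these data known. Besides Mcm5, Pcna, Rrm2, Top2a, Mki67, Cdk1 and Ccnb1, the text names by rule the 3 largest rises and falls of each class among members called whose groups did not overlap. UMI depth sets the precision given by the floors and counts, which cover counting error only.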

Additional observations from a re-analysis of the deposited data

Results flagged for a closer look

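The fracture effect differed between the chondrocyte-like class and each other stromal class by edgeR's test of the class and group interaction with the preparation as a block, adjusted over all genes. The members with a larger effect were 39 of 41 in the osteoblast-like class, 40 in the BMSC-like class, 29 in the fibroblast-like class, 41 in the endothelial-like class and 40 in the smooth muscle-like class. With a preparation left out, the lowest counts were below these in all but the BMSC-like class, and no share over all genes is given for these fits. The chondrocyte-like class joins a Col10a1-led and a Serpina1a-led cluster in shares that differed between Control and Fracture, and the part of this in the differences was not tested.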

How the results depend on the processing

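Preparations with the same number share only that number, and their deviations correlated at 0.01 to 0.25. With the preparation number as a replicate block, the members called higher were 29 in osteoblast-like, 39 in BMSC-like, 24 in fibroblast-like, 38 in endothelial-like and 38 in smooth muscle-like cells and those lower 31 in the chondrocyte-like class. No share over all genes is given for this fit or the alternatives below, apart from the 2 clusters alone, whose shares stand above. Counts of members there show only how the calls moved. The cause of the changes below was not tested. The chondrocyte-like results depended most on the clusters, a choice made once the data had been seen. The Col10a1-led cluster alone gave 1 member higher, 15 lower and log2 ratios of -0.30 (S) and -0.20 (G2M), and the Serpina1a-led cluster alone gave 16, 2, 0.0276 and 0.46, both ratios reversed in sign. The S ratio of the class was -0.59 with barcodes over 6000 genes and -0.56 as a mean of log2 values. The osteoblast-like S ratio was 0.64 without integration and 0.14 with barcodes over 6000 genes. Its G2M ratio was 1.48 and 0.71 under these, 1.08 with symbols starting with U and 0.86 as a mean of log2 values. The fibroblast-like S ratio was 0.71 without integration, -0.00931 in cells of at least 3000 UMIs, -0.0174 with barcodes over 6000 genes, 0.0817 as a mean of log2 values and -0.0204 to 0.0461 with a preparation left out. Fibroblast-like members called higher were 3 with barcodes over 6000 genes, and those lower were 0 by DESeq2 and 1 with DESeq2's size factors, no low-count filter, the block, no integration, doublets left out, at least 3000 UMIs, barcodes over 6000 genes or symbols starting with U. The BMSC-like member called lower was lost (0) under DESeq2, its size factors, no integration, doublets left out, at least 3000 UMIs and symbols starting with U. With a preparation left out, the members called ranged from 12 to 38 (chondrocyte-like, lower), 13 to 36 (osteoblast-like, higher), 0 to 1 (BMSC-like, lower), 13 to 27 (fibroblast-like, higher), 0 to 2 (fibroblast-like, lower) and 16 to 40 (endothelial-like, higher). Without thinning, the difference in S-positive cells was -17.5 percentage points and in G2M-positive cells -3.89 in osteoblast-like cells, and in fibroblast-like cells S-positive cells differed by 5.28, or 0.760 when thinned to 2000 UMIs, all reversed against thinning to 1000. DESeq2 called 25 members lower in the chondrocyte-like class and 18, 39, 21, 32 and 28 higher in the osteoblast-like, BMSC-like, fibroblast-like, endothelial-like and smooth muscle-like classes. No share over all genes is given for these DESeq2 counts. Depth limits the smooth muscle-like and fibroblast-like Control values, which rest on few UMIs of a member.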

Other observations

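Finer clusters, without a test and without TMM factors, showed where the sums were held. Among chondrocyte-like cells, a cluster led by Chi3l1 and Ucma (480, 149, 1148 and 1303 cells in Control 1, Control 2, Fracture 1 and Fracture 2) had G2M sums of 1400, 1183, 943 and 1076 CPM, lower in both Fracture preparations. The Serpina1a-led cluster at this resolution had 1444, 1214, 1758 and 1573, higher in both. A cluster led by Col10a1 and Loxl4 had 115, 63.1, 87.5 and 86.1, more than 10 times lower, and a cluster led by Hapln1 and Panx3 had 111, 105, 178 and 222. One led by C1qtnf3 (155, 42, 1485 and 1567 cells) had 190, 491, 582 and 465, which overlapped. Endothelial-like cells led by Stab2, Gpihbp1 and Dnase1l3, markers of sinusoids among them, had G2M sums of 272, 672, 1583 and 1811, and those led by Stmn2 and Gja4, the latter an arterial connexin, had 244, 248, 860 and 669. Both endothelial clusters were higher in each Fracture preparation than in either Control one.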
